A study of Mus musculus with 2 samples.

Results

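The 10 genes described here are the Notch receptors Notch1, Notch2, Notch3 and Notch4, the ligands Jag1, Jag2 and Dll1, and the target genes Hes1, Hey1 and Heyl. They were chosen by symbol, and each has a row among the 17260 genes of the counts table that the authors deposited. Messenger RNA was sequenced from mouse embryonic fibroblasts (MEFs), connective tissue cells cultured from embryos, in 1 library labelled Ahi1-/- and 1 wild-type (WT) library. Both are labelled C57BL/6, both cultures came from embryos of day 13.5, and both were grown in DMEM with 10% serum. The product of Ahi1 is found at the transition zone, the gate at the base of the primary cilium. The sources used here do not give the Ahi1 allele, how many embryos were used or the passage of the cells. Each genotype had 1 library and no replicates, so no test and no p-value is given, and every interval covers counting error only.

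Notch signalling works by contact between cells. A Jagged or Delta-like ligand on 1 cell binds a Notch receptor on its neighbour, and the receptor is then cut by an ADAM protease and by gamma-secretase. The freed intracellular part enters the nucleus, joins the DNA-binding protein RBPJ and a Mastermind coactivator, and switches on genes of the Hes and Hey families, which encode repressors of transcription. In mesenchymal cells the pathway is known for its roles in vessel walls, in cartilage and bone formation and in holding progenitors undifferentiated.

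The libraries held 20820756 expected counts in the one labelled Ahi1-/- and 19067504 in WT. Ahi1 itself had 370 and 410 counts in the library labelled Ahi1-/- and in WT (log2 ratio -0.16, 95% counting interval from -0.37 to 0.05), and a count over the whole gene cannot check the labels. The wording library labelled Ahi1-/- is therefore kept throughout, and the column heads EXP and CON were read as that library and WT. All 8 fibroblast markers looked at were detected in both libraries, but 7 of them were 2-fold or more apart on the higher side and 0 on the lower side. Over all genes with 50 or more counts in either library, 16% were that far apart on the higher side and 10.3% on the lower side. In the library labelled Ahi1-/- Thy1 had 1337.96 TPM (a level that takes transcript length into account), against 16.3 TPM in WT. Lum had 177 and 3.74 TPM and Pdgfra 107 and 13.3 TPM in the library labelled Ahi1-/- and in WT. The markers had a summed level of 19262.5 TPM in the library labelled Ahi1-/- and 7534.35 TPM in WT. In bulk RNA, fewer cells of a type and less RNA per cell cannot be told apart.

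Jag1 and Jag2 had the largest absolute log2 ratios of the 10 genes, in opposite directions. The library labelled Ahi1-/- had much more Jag1 and nearly no Jag2, whereas WT had Jag2 and little Jag1. Jag1, which encodes the ligand Jagged 1 and lies on chromosome 2, had 1320 counts in the library labelled Ahi1-/- and 44 in WT. Its level was 26.2 TPM (24.8 to 27.6) in the library labelled Ahi1-/- and 0.86 TPM (0.62 to 1.15) in WT. After scaling of the libraries this was a 29.7-fold higher value (22.0 to 41.1). Jag2, which encodes the related ligand Jagged 2 and lies on chromosome 12, had 3 counts in the library labelled Ahi1-/- and 301 in WT. Its level was 0.08 TPM (0.016 to 0.23) in the library labelled Ahi1-/- and 7.12 TPM (6.34 to 7.97) in WT, a 101-fold lower value (34.3 to 494). The intervals of the libraries lay far apart for both Jagged genes. Dll1, which encodes the ligand Delta-like 1, was close to the limit of detection with 10 counts in the library labelled Ahi1-/- and 9 in WT (0.33 and 0.26 TPM). Its log2 ratio of 0.14 had an interval of -1.31 to 1.61, so a difference was not detectable at this depth.

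Summed over these 3 ligand genes, the level was 26.6 TPM in the library labelled Ahi1-/- and 8.24 TPM in WT, a ratio of 3.22. Jag1 made up 98.5% of the sum in the library labelled Ahi1-/- and 10.4% in WT. Jag2 made up 0.30% of it in the library labelled Ahi1-/- and 86.4% in WT. The other canonical ligands Dll3 and Dll4 did not add to this. Dll3 had 0 and 2 counts and Dll4 had 1 and 3 counts in the library labelled Ahi1-/- and in WT. The library labelled Ahi1-/- therefore held more ligand transcript in total, and nearly all of it came from a gene that was a minor part of the WT sum.

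**Figure D1:**
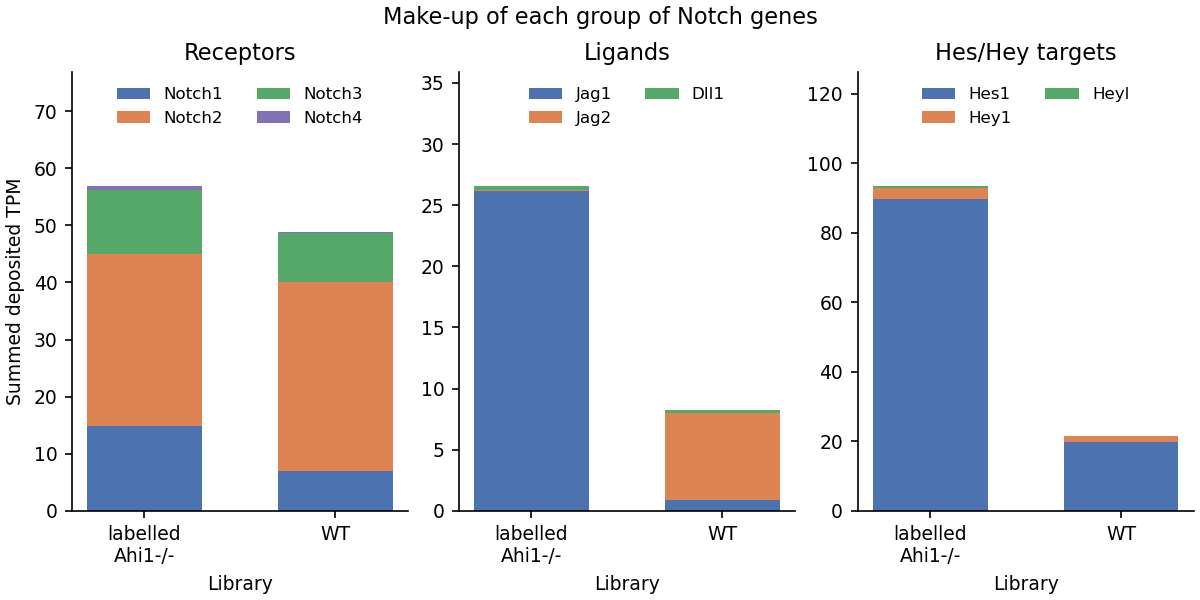
Summed deposited TPM of the 4 receptors, the 3 ligands and the 3 Hes/Hey genes in each library, stacked by gene, with the library labelled Ahi1-/- left of WT and a separate vertical scale in each panel. Notch2 is the largest part of both receptor bars, the ligand bar is nearly all Jag1 in the library labelled Ahi1-/- and mostly Jag2 in WT, and the Hes/Hey bars are mostly Hes1.

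A gene was called higher or lower if its scaled counts were 2-fold or more apart and the larger raw count was 50 or more. Of 12075 genes with that many counts, 16% were called higher in the library labelled Ahi1-/-, 10.3% lower and 26.4% in either direction. By that rule 3 of the 10 genes were higher (Notch1, Jag1 and Hes1), 1 was lower (Jag2), 3 lay within 2-fold (Notch2, Notch3 and Hey1), and 3 had under 50 counts in both libraries (Notch4, Dll1 and Heyl). The median log2 ratio was 0.84 over all 10 and 0.61 over the 7 with at least 50 counts, beside -0.04 over the 12075 genes. In the order of all 12075 ratios, 291 genes had a larger ratio than Jag1 and 12 had a smaller one than Jag2. Both stood near the ends. A library at 0 was set to 3 counts, which is also the Jag2 count in the library labelled Ahi1-/-. Genes at 0 there with fewer WT counts than Jag2, such as Zfp967 (0 and 208), could not rank below Jag2. The rank of Jag2 therefore depends on that floor. For Hes1, 1020 genes had a larger ratio, and for Notch1, 1842.

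**Figure D2:**
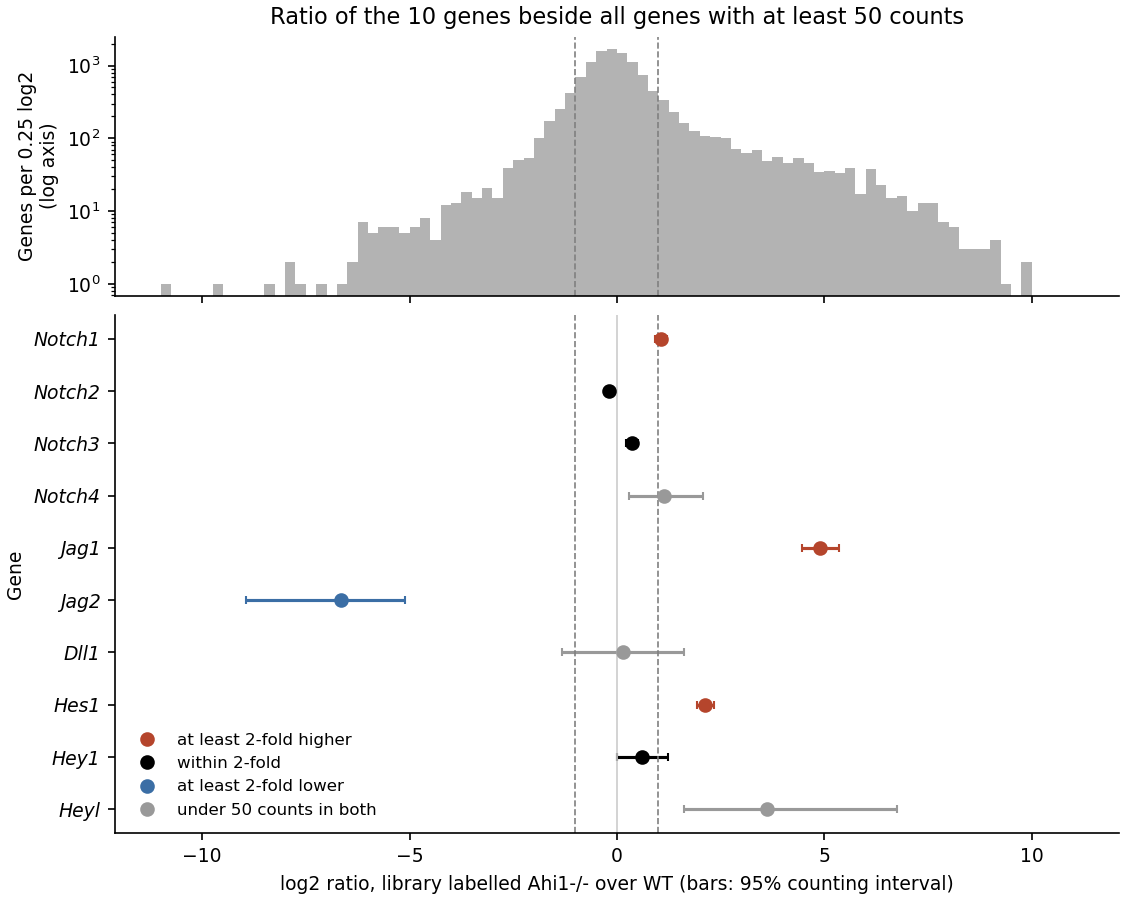
Log2 ratio of each of the 10 genes, library labelled Ahi1-/- over WT, with 95% counting intervals (lower panel), under a histogram of the ratios of all 12075 genes with 50 or more counts in either library (upper panel, log axis). Dashed lines mark 2-fold. Jag1 (4.89) and Jag2 (-6.66) lie in opposite tails, Hes1 (2.13) lies beyond the upper line, Notch1 (1.06) lies at it, and Notch2 and Notch3 lie between the lines.

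The sequences just upstream of the annotated starts are shown for the genes with opposite ratios, Jag1 and Jag2, and for Notch1, which lies on the same chromosome as Jag1. Each run is 250 bases, 5′ to 3′ on the gene's strand, from RefSeq on GRCm38.p6, and capitals mark CG dinucleotides. All 3 genes are on the minus strand, at chr2:137116521-137116770 for Jag1, chr12:112929496-112929745 for Jag2 and chr2:26503823-26504072 for Notch1.
Jag1: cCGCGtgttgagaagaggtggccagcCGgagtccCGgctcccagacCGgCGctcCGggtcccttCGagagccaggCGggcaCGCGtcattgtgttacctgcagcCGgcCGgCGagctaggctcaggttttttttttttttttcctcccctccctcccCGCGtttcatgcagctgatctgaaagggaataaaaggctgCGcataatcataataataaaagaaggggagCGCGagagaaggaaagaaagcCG
Jag2: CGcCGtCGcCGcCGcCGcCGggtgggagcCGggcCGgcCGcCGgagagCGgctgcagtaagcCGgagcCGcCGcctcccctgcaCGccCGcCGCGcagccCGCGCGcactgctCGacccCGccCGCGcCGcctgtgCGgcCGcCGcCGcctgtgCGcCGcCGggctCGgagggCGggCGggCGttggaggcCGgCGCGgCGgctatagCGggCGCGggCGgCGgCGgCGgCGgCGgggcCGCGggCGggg
Notch1: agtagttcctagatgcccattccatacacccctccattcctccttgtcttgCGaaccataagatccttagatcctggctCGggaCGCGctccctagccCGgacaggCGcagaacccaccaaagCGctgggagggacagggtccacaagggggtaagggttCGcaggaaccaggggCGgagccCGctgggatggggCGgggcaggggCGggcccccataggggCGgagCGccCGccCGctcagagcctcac
The windows differ in base composition. Jag2 has 54 CG dinucleotides and 87.2% G and C, Jag1 has 20 and 57.2%, and Notch1 has 16 and 66.0%, beside a median of 6 and 52.4% over all 32851 windows of the same length. The letters TGGGAA, the core of the RBPJ motif, were searched on both strands and are in 21.6% of all windows. They are in none of the 8 windows that 7 of the 10 genes have in that set (Dll1 has 2). The set has no window for Hes1, Hey1 or Heyl, so the target genes were not searched for any of these patterns. CACGTG, an E-box, is in 6.02% of all windows and in none of those 8. CACNAG, the N-box that Hes proteins are known to bind, is in 36.7% of all windows. It was found 1 time in the Notch1 window, 1 time in that of Notch2 and 2 times in that of Notch3, and not in those of Notch4, Jag1, Jag2 or Dll1. These patterns share no site in the windows shown.

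None of the 4 receptor genes was as far apart as Jag1 or Jag2. Notch2, the most abundant receptor in both libraries, had 2881 counts in the library labelled Ahi1-/- and 3252 in WT. Its level was 30.1 TPM (29.0 to 31.2) in the library labelled Ahi1-/- and 33.2 TPM (32.1 to 34.4) in WT. The log2 ratio of -0.19 (-0.26 to -0.11) lay within 2-fold, and it was 0.07 once the median of chromosome 3 was subtracted. Notch2 levels were therefore close in the libraries, and the direction of the small gap depended on the scaling.

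Notch1 had 1287 counts in the library labelled Ahi1-/- and 611 in WT. Its level was 14.9 TPM (14.1 to 15.7) in the library labelled Ahi1-/- and 6.91 TPM (6.37 to 7.48) in WT. The scaled value was 2.09-fold higher (1.89 to 2.30), so the intervals of the TPM levels did not meet but the interval of the ratio includes 2-fold. Scaling by total counts gave 1.93-fold, which is under the threshold. The count of higher genes among the 10 is then 2.

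Notch3, which is known as the receptor of vessel wall smooth muscle and pericytes, had 823 counts in the library labelled Ahi1-/- and 636 in WT. Its level was 11.2 TPM (10.5 to 12.0) in the library labelled Ahi1-/- and 8.48 TPM (7.83 to 9.17) in WT. The log2 ratio of 0.36 (0.21 to 0.51) lay within 2-fold, and it was 0.68 relative to the median of its chromosome, 17, where genes had a median log2 ratio of -0.32. Notch4, a receptor known mainly from endothelium, had 38 and 17 counts, or 0.63 and 0.28 TPM, in the library labelled Ahi1-/- and in WT. Its log2 ratio of 1.15 had an interval of 0.29 to 2.07, with too few counts to be called by the rule.

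Together the 4 receptors had 56.9 TPM in the library labelled Ahi1-/- and 48.9 TPM in WT, a ratio of 1.16. Notch2 held 52.9% of this sum in the library labelled Ahi1-/- and 67.9% in WT. Notch1 held 26.2% in the library labelled Ahi1-/- and 14.1% in WT, and Notch3 held 19.8% and 17.4%. The receptor sum was thus nearly level between the libraries, with a larger part from Notch1 in the library labelled Ahi1-/-.

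Among the target genes, Hes1 was the abundant one and was called higher, and Heyl, with few counts, had a larger ratio with a wide interval. Hes1 encodes a basic helix-loop-helix repressor that Notch signalling is known to induce in many cell types, and serum and Hedgehog signalling are known to act on it as well. It lies on chromosome 16 and had 1133 counts in the library labelled Ahi1-/- and 256 in WT. Its level was 89.8 TPM (84.6 to 95.1) in the library labelled Ahi1-/- and 19.7 TPM (17.3 to 22.2) in WT, a 4.39-fold higher scaled value (3.83 to 5.04). Hey1, which encodes a related repressor, had 60 counts in the library labelled Ahi1-/- and 39 in WT. Its level was 3.09 TPM (2.36 to 3.98) in the library labelled Ahi1-/- and 1.93 TPM (1.37 to 2.64) in WT. The log2 ratio of 0.61 had an interval of 0.003 to 1.23, and the intervals of the TPM levels overlapped. Heyl, another Hey family gene and known from smooth muscle beside Notch3, had 25 counts in the library labelled Ahi1-/- and 2 in WT. Its log2 ratio of 3.63 had a wide interval of 1.63 to 6.75, and at 0.61 and 0.05 TPM it was scarce in the library labelled Ahi1-/- and in WT. With a pseudocount of 1 TPM the Heyl log2 ratio was 0.62. All 3 target ratios lay above 0, and Hes1 alone of them had enough counts and was 2-fold apart.

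In the order of levels, Hes1 stood first in the library labelled Ahi1-/- and was followed by Notch2, Jag1, Notch1, Notch3 and Hey1, with intervals that did not overlap between neighbours. Notch4, Heyl, Dll1 and Jag2 came last, and each of these overlapped the next. In WT, Notch2 stood first and was followed by Hes1. Notch3, Jag2 and Notch1 came next with levels that overlapped from neighbour to neighbour, then Hey1 and Jag1. Notch4, Dll1 and Heyl closed the order, again overlapping from neighbour to neighbour. Jag1 thus had rank 3 in the library labelled Ahi1-/- and rank 7 in WT, and Jag2 had ranks 10 and 4.

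**Figure D3:**
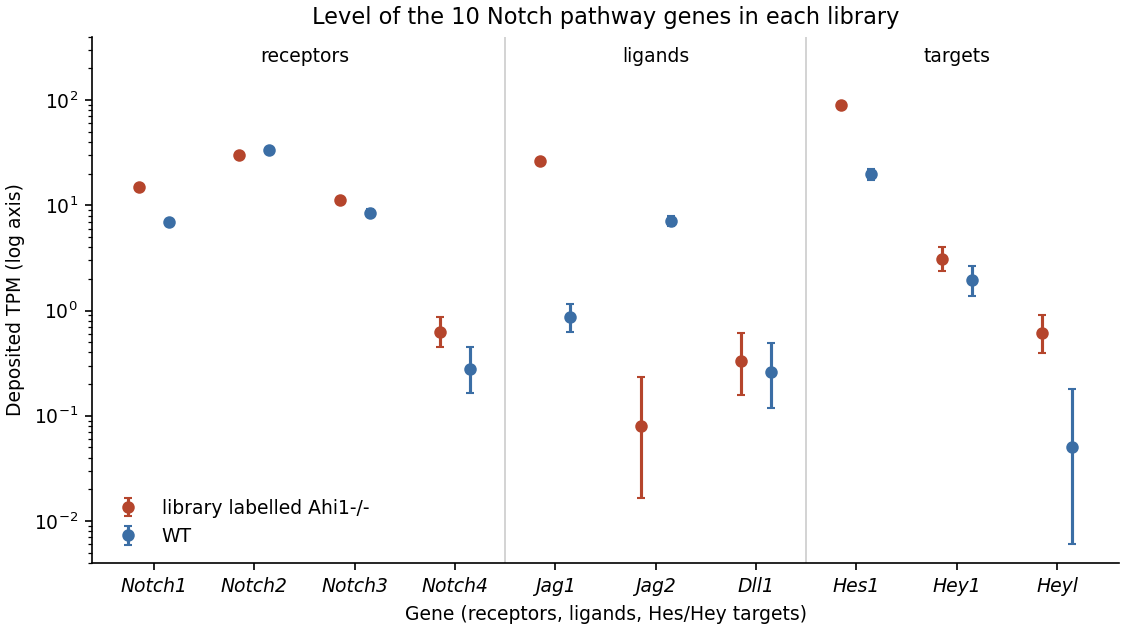
Deposited TPM of the 10 genes on a log axis, with the library labelled Ahi1-/- left of WT for each gene and bars for exact 95% Poisson intervals of the counts. The points are farthest apart for Jag1 and Jag2, in opposite directions, and closest for Notch2, Notch3 and Dll1.

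A second deposited table gives FPKM values, another level per transcript length, for 3872 genes, or 22.4% of the 17260. Its smallest absolute log2 ratio between the libraries was 1, over the genes above 0 in both. It lists Jag1, Jag2, Hes1 and Heyl and none of the other 6. Jag1 had 11.5 FPKM in the library labelled Ahi1-/- and 0.42 FPKM in WT. Jag2 had 0.04 FPKM in the library labelled Ahi1-/- and 3.50 FPKM in WT. Hes1 had 39.4 FPKM in the library labelled Ahi1-/- and 9.66 FPKM in WT, and Heyl had 0.27 and 0.02 FPKM. The log2 ratios were 4.77 for Jag1, -6.45 for Jag2, 2.03 for Hes1 and 3.75 for Heyl, all in the direction that the counts gave. Across 2052 genes of this table the log2 ratio of FPKM was lower than that of TPM by a median shift of -0.16. With that shift the TPM ratio of Notch1, 2.16, becomes 1.93, and Notch1 is not in the table.

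The rest of the pathway was described with lists of 82 other genes, of which 78 have a row and 67 had 50 or more counts in either library. Of the 67, 17 (25.4%) were higher and 6 (8.96%) lower, beside 16% and 10.3% of all genes, and the median log2 ratio was 0.17 beside -0.04.

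Secreted and membrane proteins reported to bind Notch differed in both directions, with 3 of 5 measured genes higher and 2 lower. Mfap5, which encodes a microfibril protein, had 653 counts in the library labelled Ahi1-/- and 6 in WT (108-fold higher). Its relative Mfap2 had 1547 and 146 counts (10.5-fold higher), and Ccn3, a matricellular protein, had 574 and 128 (4.44-fold higher). The membrane proteins Dlk1 and Dlk2, known in mouse as noncanonical ligands, were both at the threshold. Dlk2 had 72 counts in the library labelled Ahi1-/- and 145 in WT (2.03-fold lower). Dlk1, which was named after its values were seen, had 1135 and 2274 (2.02-fold lower). With upper-quartile scaling they were 1.96-fold and 1.95-fold lower, under the threshold.

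The genes for receptor cleavage had 3 of 9 measured members higher and 0 lower, around a median log2 ratio of 0.33. Ncstn, which encodes the gamma-secretase subunit nicastrin, had 3705 counts in the library labelled Ahi1-/- and 1551 in WT (2.37-fold higher). Psen2, a catalytic presenilin, had 293 and 124 counts (2.34-fold higher). Furin, which encodes the protease that matures the receptor, had 5130 and 2449 (2.08-fold higher), but 1.92-fold with total counts. All 3 lay within 2-fold once chromosome medians were subtracted. Of the glycosyltransferases, which set the sugar chains on the receptor, 1 of 5 was higher and 0 lower. That gene, Eogt, had 1206 and 571 counts (2.09-fold higher) and was within 2-fold with total counts and with chromosome medians subtracted.

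Of 15 measured genes for trafficking and turnover, 2 were higher and 1 lower, around a median log2 ratio of 0.09. Neurl1b, a ubiquitin ligase known to act on Notch ligands, had 22 counts in the library labelled Ahi1-/- and 227 in WT (10.4-fold lower). Numbl, a relative of the Notch inhibitor Numb, had 2998 and 1283 (2.32-fold higher), and the ubiquitin ligase gene Cbl had 2221 and 977 (2.25-fold higher). Both lay within 2-fold once chromosome medians were subtracted. Of 19 nuclear complex and corepressor genes, 2 were higher and 1 lower, around a median of -0.27. The Mastermind gene Maml3 had 149 and 480 counts (3.25-fold lower) and the corepressor gene Tle1 712 and 310 (2.28-fold higher). Rbpj, the DNA-binding partner through which the pathway acts, had 4312 counts in the library labelled Ahi1-/- and 5350 in WT (log2 -0.32), within 2-fold.

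In the list of other Hes, Hey and related repressor genes, 3 had enough counts, of which 0 were higher and 1 was lower. Hes6 was the only Hes or Hey gene of the 3 and had 232 and 223 counts in the library labelled Ahi1-/- and in WT (log2 0.04), and Bhlhe40 lay within 2-fold. The lower gene was the circadian repressor gene Bhlhe41, with 154 counts in the library labelled Ahi1-/- and 689 in WT (4.51-fold lower). Hey2 had 29 counts in the library labelled Ahi1-/- and 47 in WT, with a log2 ratio of -0.71 (-1.43 to -0.01). Other reported targets had 6 of 11 measured members higher and 1 lower, around a median log2 ratio of 1.31. Efnb2, which encodes the arterial guidance ligand ephrin B2, had 1855 and 299 counts (6.15-fold higher), and the transcription factor gene Gata3 had 90 and 16 (5.57-fold higher). Ccnd1, the cyclin D1 gene, was 20.7-fold and the smooth muscle actin gene Acta2 16.9-fold higher. These are known to respond to many other signals. Nrarp, a feedback inhibitor and a more specific readout of the pathway, had 21 counts in the library labelled Ahi1-/- and 14 in WT, with a log2 ratio of 0.57 (-0.47 to 1.66), so a difference was not detectable at this depth. Hes6, Bhlhe40, Hey2 and Nrarp were named after their values were seen.

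**Figure D4:**
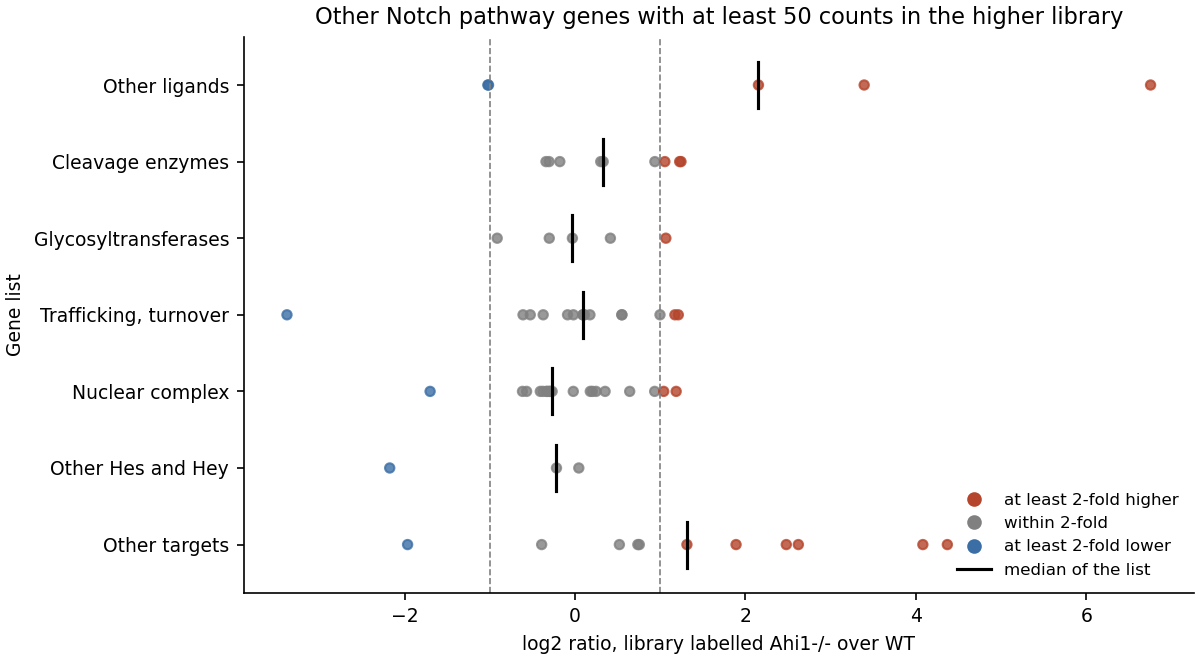
Log2 ratio, library labelled Ahi1-/- over WT, of the 67 other pathway genes with 50 or more counts in either library, 1 point per gene, by list, with black ticks at list medians and dashed lines at 2-fold. The medians of other ligands (2.15) and other targets (1.31) lie beyond the upper line, and the other 5 lie between -0.27 and 0.33.

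Markers of cell types that use Notch genes also differed between the libraries. Over all genes with 50 or more counts in either library, 16% were called higher and 10.3% lower. Of 11 pericyte and smooth muscle markers, 8 had 50 or more counts in either library, 7 of them higher and 0 lower. All 11 summed to 8551.04 TPM in the library labelled Ahi1-/- and 532.9 TPM in WT. Kcnj8 had 14 counts in the library labelled Ahi1-/- and 0 in WT. All 6 cartilage markers had 50 or more counts, and 0 were higher and 5 lower. Their sum was 54.9 TPM in the library labelled Ahi1-/- and 966 TPM in WT. Of 5 red cell markers, 4 had 50 or more counts and all 4 were lower. The 5 summed to 19.8 and 1312.15 TPM in the library labelled Ahi1-/- and in WT. Of 5 epithelial markers with a row, 4 had 50 or more counts and all 4 were higher. The 5 summed to 39.5 and 16.2 TPM. Krt5 had 1 count in the library labelled Ahi1-/- and 0 in WT, too few to show a difference. The part of these, and of the fibroblast markers, in the Jag1, Jag2, Hes1 and Notch1 values was not tested. Endothelial markers apart from Flt1 were at 1.04 TPM or below in both libraries. Flt1 had 2185 counts in the library labelled Ahi1-/- and 837 in WT and was called higher. The other endothelial markers had under 50 counts in both. In the library labelled Ahi1-/- and in WT, Pecam1 had 2 and 7 counts, Cdh5 1 and 9, and Tie1 0 and 20. Sox17 had 0 and 2, Vwf 7 and 24, Esam 3 and 9, and Cldn5 1 and 2. Erg went the other way with 31 and 13, as did Emcn with 8 and 1. Tek had 9 and 8 and Kdr 20 and 20. The endothelial sums of 41.0 and 17.2 TPM were mostly Flt1. Of 6 leukocyte markers with a row, 3 had 50 or more counts, 0 of them higher and 1 lower. The 6 summed to 13.5 and 22.2 TPM. Of 6 neural progenitor markers with a row, 2 had 50 or more counts, 0 of them higher and 1 lower. The lower one, Sox2, had 10 counts in the library labelled Ahi1-/- and 83 in WT (8.37-fold lower, 4.33 to 18.1). The sums of 23.9 and 24.1 TPM were mostly Nes, at 20.5 and 18.5 TPM. Dcx had 0 counts in the library labelled Ahi1-/- and 3 in WT, and Pax6 had 2 and 0, too few to show a difference. Of 5 skeletal muscle progenitor markers only Pax3 has a row, with 8 and 5 counts.

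Over the 2 libraries, the genes whose scaled counts lay nearest to those of Jag1 were Myh11, Slco2a1 and Igdcc4, by distance on the log2(CPM + 0.5) scale. They had 1466, 1201 and 1164 counts in the library labelled Ahi1-/- and 43, 39 and 52 in WT. Nearest to Jag2 were C1ql1, Slc4a1 and Ibsp, with 5, 5 and 8 counts in the library labelled Ahi1-/- and 306, 313 and 296 in WT. Within 0.5 on that scale there were 7 genes for Jag1 and 3 for Jag2. This distance matches level as well as ratio, and predicted, clone and accession symbols were left out. The counts therefore do not say how many genes shared either ratio, and 2 libraries can show little of a pattern.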

How the data were processed

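Per the file headers, the authors deposited read counts and TPM for each library in 1 table and FPKM values for part of the genes in another. The deposited counts are expected counts, since only 64.4% (library labelled Ahi1-/-) and 65.1% (WT) were whole, and they were rounded. RSEM 1.2.12, HISAT2 2.0.4, Bowtie2 2.2.5 and build mm8 are named, with no roles, per the submitters' processing notes. The annotation, use of strand and any filters are not stated there, so overlapping genes and antisense reads cannot be told apart. All 6 value columns were used.

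Libraries were scaled with TMM (edgeR 4.0.16, R 4.3.3), and ratios are the library labelled Ahi1-/- over WT. Intervals are exact, Clopper-Pearson at 95% for ratios and Poisson for levels. A gene was higher or lower at 2-fold or more with 50 or more counts in either library. A library at 0 was set to 3 counts, and no ratio is given where both were at or under that. From each pathway list the text names up to 4 genes that met the rule, largest absolute log2 ratio first, or the 2 with most counts where none did. The calculation was tested on simulated counts that held counting error only. Such a test cannot show how far cultures of the same genotype differ. Alternatives used DESeq2 1.42.0 size factors, other scalings, TPM with a pseudocount of 1 or 0.1, FPKM, chromosome medians, and other minimums, folds and floors. Python 3.11.15, pandas 2.3.3 and scipy 1.17.1 did the rest. Chromosomes and neighbours came from GRCm38.p6, which is not the build of the notes, and matched 17210 of the 17260 genes. Members, lists and tests were chosen with earlier results of these data known. Values of some listed genes are not reported here.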

Additional observations from a re-analysis of the deposited data

How the results depend on the processing

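Jag1, Jag2 and Hes1 kept their direction and stayed at least 2-fold apart under every scaling and TPM setting tried. The log2 ratios were 3.87 to 5.04 for Jag1, -6.78 to -2.91 for Jag2 and 2.02 to 2.28 for Hes1. Their FPKM ratios lay within these ranges. Being 2-fold apart in FPKM is no check, because every gene of that table above 0 in both libraries was at least 2-fold apart. The values nearest to 0 for Jag1 and Jag2 came from TPM with a pseudocount of 1, which pulls low levels together by construction. Notch1 ranged from 0.95 to 1.20 and was under 2-fold with total counts. Heyl ranged from 0.62 to 3.68 and Notch4 from 0.35 to 1.47, with the lowest values again from that pseudocount. The FPKM log2 ratio of Heyl, 3.75, lay just above its range. With chromosome medians subtracted, 13 genes of the other pathway lists were higher, against 17. Scaling by total counts moved the median of all genes by -0.11. With a minimum of 10 counts, or none, 5 of the 10 genes were at least 2-fold higher, because Notch4 and Heyl then count. With no minimum, 10 genes of the other pathway lists were lower, and over all genes 3111 were higher and 2063 lower. At 1.5-fold, 2606 of all genes were lower. At 4-fold, 7 genes of the pathway lists were higher and 2 lower, beside 1078 and 299 of all genes. Shares of receptor TPM did not move beyond counting error when lengths were held equal. The lengths implied by the counts and TPM were already nearly equal between the libraries, so this could hardly have changed the shares. No paired analysis was possible because each genotype had 1 library. Depth limits Notch4, Dll1, Heyl, Hey2 and Nrarp, all under 50 counts in both libraries.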

Other observations

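The genes beside the Notch genes that differed were mixed. They were looked up after the values of the Notch genes were known, as the nearest 2 genes with a row on each side on GRCm38.p6. Beside Jag1, Mkks had 350 counts in the library labelled Ahi1-/- and 372 in WT, Slx4ip 228 and 273, and Btbd3 991 and 578, all within 2-fold, while Sptlc3 had 0 and 1. Beside Jag2, Nudt14 had 202 and 428 counts (2.14-fold lower) and Brf1 854 and 1100 (within 2-fold), and the other neighbours had under 50 counts. Beside Notch1, Egfl7, which encodes a secreted protein known from vessels, had 117 and 236 counts (2.04-fold lower), whereas Notch1 was higher, and Sec16a, Inpp5e and Agpat2 lay within 2-fold. Beside Hes1, Lrrc15, a surface protein gene of activated fibroblasts, had 11016 counts in the library labelled Ahi1-/- and 809 in WT (13.5-fold higher), and Opa1 lay within 2-fold. Nearer to Hes1, Cpn2 had 23 and 5 counts (log2 2.19, interval 0.76 to 3.94) and Gm46567 had 5 and 1.

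Some scarce pathway genes had few counts in 1 library. Dner, a neuronal membrane protein reported to bind Notch, had 45 counts in the library labelled Ahi1-/- and 4 in WT (log2 3.48, interval 2.02 to 5.42). Mfng, a fringe glycosyltransferase gene, had 0 and 15 counts, 5.04-fold lower against a floor of 3 counts per library. That fold is set by the floor. The near end of the counting interval was 3.62-fold lower, and the interval had no limit toward larger folds. Lfng, a relative of Mfng, had 75 and 140 counts (log2 -0.91, -1.34 to -0.50). These genes were named after their values were seen.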
